A study of Mus musculus with 8 samples.

Results

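The genes described are 8 enzymes of heme synthesis, the making of the iron-bearing group of hemoglobin, and the transferrin receptor, 9 of the 53465 genes in the table of expected counts, taken by gene symbol, with no measured value in the rule. They are *Alas1* and *Alas2*, *Alad* (porphobilinogen synthase), *Uros* (uroporphyrinogen III synthase), *Urod* (uroporphyrinogen decarboxylase), *Cpox* (coproporphyrinogen oxidase), *Ppox* (protoporphyrinogen oxidase), *Fech* (ferrochelatase) and *Tfrc* (transferrin receptor 1). All 9 were found, and all 9 passed the filter on low counts.

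Heme, the iron-bearing group of hemoglobin and of the mitochondrial cytochromes, is built in a chain of enzyme steps that begins and ends in mitochondria. The first step joins glycine and succinyl-CoA and is run by 2 isozymes, ALAS1 in most tissues and ALAS2 in red-cell precursors. The later enzymes serve both kinds of cell, and the transferrin receptor brings in the iron that the last of them inserts. At the stage studied here the circulating blood consists mainly of primitive red cells that are still filling with embryonic hemoglobin, while the beating myocardium needs heme for respiration.

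RNA-seq of polyadenylated RNA was made from heart ventricles of mouse embryos at embryonic day 9.5. There were 4 samples of wild-type (WT) embryos and 4 of Nrg-1flox;Tie2-Cre embryos, called mutant here, in which floxed *Nrg1*, a growth factor gene of the endocardium, is deleted with the Tie2-Cre line. The series description names Tie2-Cre as endothelial, and Tie2-driven Cre is also known to act in the blood lineages that arise from endothelium, so it is not limited to the endocardium. The labels do not say whether a sample was 1 embryo or a pool, nor which alleles the WT embryos carried, so p-values measure the spread between these samples, which may be partly technical.

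Total counts ranged from 11852372 to 14360323 in WT and from 12430368 to 14223860 in the mutant. *Nrg1* had 121 to 173 counts in WT and 59 to 72 in the mutant, a log2 fold change of -1.07 (SE 0.14, adjusted p = 0.00268 in edgeR). Levels are given in CPM, counts in proportion to the TMM-scaled total of their library. Cardiomyocyte markers, which define the labelled tissue, were abundant in both genotypes, with a summed level of 38385 to 40661 CPM in WT and 35758 to 40240 in the mutant. One mutant library, replicate 1, stood apart from the other mutant libraries, with hemoglobin genes at 6.26% of its counts against 1.94% to 3.90%, and without it the median log2 fold change of the genes described was 1.20 in place of 1.34.

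Some of the sequences behind these genes are shown first, so that the promoters can be read for letters that the red-cell factor GATA1 is known to bind. The RefSeq promoter table for GRCm38.p6 held entries for 8 of the 9 genes, each from 250 bases before to 50 bases after an annotated start. They were searched on both strands for AGATAA and AGATAG and for the same letters with T in the first place, any of which 29.8% of the 32851 promoters of this length in the table hold. Overlapping matches were counted apart. The 8 genes have 12 entries, since some have 2 starts, and 3 of the 12 (25%) held such letters, a share not above that of all promoters. These were entries of *Alas2*, *Cpox* and *Uros*. A stretch upstream of the start is given for each of the 3 genes, with the matches in capitals, which on the strand printed read as the reverse complement, and the pair of matches shown for *Cpox* shares 1 base.
Alas2, chrX:150547303-150547362, plus strand, bases -114 to -55 from the start: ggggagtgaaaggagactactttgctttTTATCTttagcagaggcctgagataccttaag
Cpox, chr16:58670092-58670151, plus strand, bases -116 to -57: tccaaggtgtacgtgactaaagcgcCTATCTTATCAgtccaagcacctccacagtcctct
Uros, second start, chr7:133702552-133702581, minus strand, bases -81 to -52: atctccctcagccTTATCAgtgacagaggg

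*Uros* has 2 starts in the table, and the letters were found only at the second. The stretches printed for *Cpox* and *Uros* do not hold every match in their entries. The entries of *Alas1*, *Alad*, *Urod*, *Ppox* and *Tfrc* did not hold these letters in this window. The letters CACCC, part of the sites of the red-cell factor KLF1, were found in 8 of the 12 entries (66.7%), against 57.5% of all promoters in the table. They stood 3 times in *Alas2*, 4 times in *Cpox*, 3 and 4 times at the starts of *Tfrc*, 2 times and 1 time at those of *Alas1*, and 1 time each in *Urod* and in 1 entry of *Alad*. These matches describe sequence and are not measured binding.

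A second set of sequences concerns iron. Iron regulatory proteins bind a hairpin in RNA, the iron-responsive element, and are known to hold back translation when it lies before the coding sequence and to stabilise the RNA when it lies after it. A script searched GENCODE M21 coding transcripts for its core, an unpaired C, an arm of 5 bases, the loop CAGTGN with a last base other than G, and an arm that pairs with the first. The core lay in the 5′ untranslated region of 0.105% and in the 3′ untranslated region of 0.457% of 21877 coding genes. Of the members, *Alas2* held it before the coding sequence and *Tfrc* held 4 copies after it. They are shown with the loop in capitals, beside those before the coding sequence of the ferritin genes *Fth1* and *Ftl1* and of *Slc40a1*, the iron exporter.
Alas2, transcript bases 90 to 106: cgtcctCAGTGCagggc
Tfrc, transcript bases 3321 to 3337: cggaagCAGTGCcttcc
Tfrc, transcript bases 3700 to 3716: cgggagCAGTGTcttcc
Tfrc, transcript bases 3765 to 3781: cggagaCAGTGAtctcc
Tfrc, transcript bases 3812 to 3828: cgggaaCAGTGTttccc
Fth1: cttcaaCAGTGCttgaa
Ftl1: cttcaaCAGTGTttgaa
Slc40a1: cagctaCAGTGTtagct

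The isozymes of the first step differed in direction, though the call of *Alas1* was the less firm. The red-cell isozyme *Alas2* was 5.44-fold higher in the mutant, the enzymes after it were 2.47-fold to 3.35-fold higher, *Tfrc* was 1.68-fold higher, and *Alas1*, the isozyme of other tissues, was lower at 0.763-fold of WT. In the edgeR fit of all 14451 genes that passed the filter, 8 members were higher and 1 was lower at FDR under 0.05. The lower call, that of *Alas1*, was lost with the Y-linked covariate and in 6 of 8 fits that left out a library, and the 8 higher calls were kept. Of all genes tested, 5.11% were called higher and 3.5% lower. The values of WT and mutant libraries did not overlap for any member, where 9.52% of all genes had every mutant library above every WT library and 9.45% had every one below. The median log2 fold change was 1.34 over the members and -0.0014 over all genes tested.

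**Figure D1:**
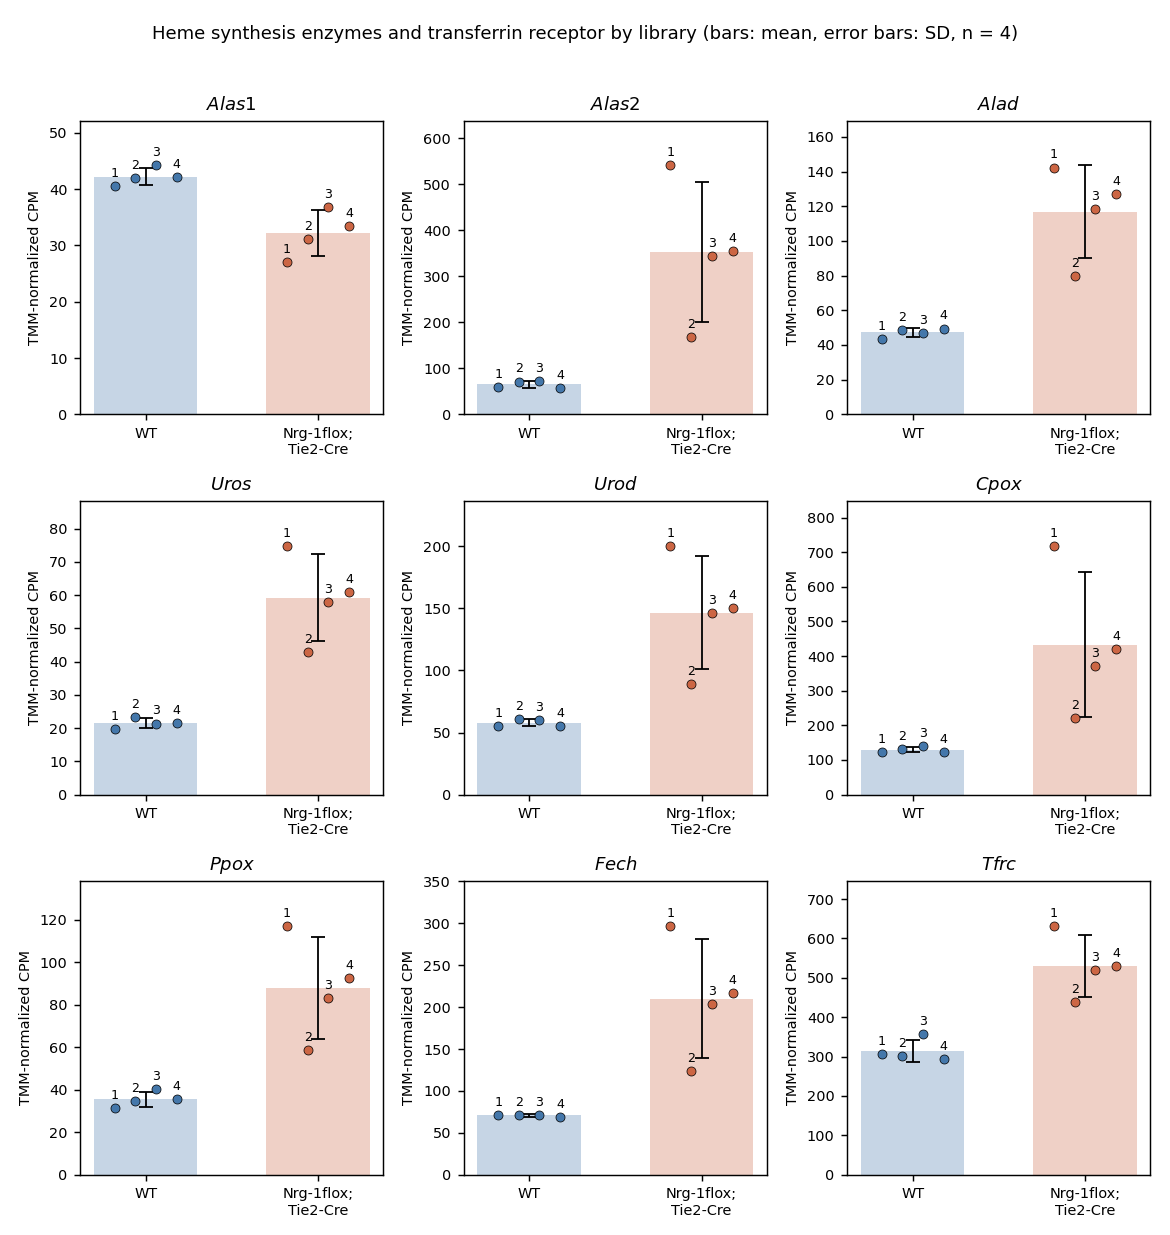
Level of each of the 9 genes in TMM-normalized CPM (vertical axes, from 0) in WT (blue) and Nrg-1flox;Tie2-Cre (orange) ventricles, where points are single libraries with their replicate number, bars are means and error bars are SD (n = 4). Mutant libraries lie above all WT libraries in every panel but that of *Alas1*, where they lie below, and replicate 1 is the highest mutant library in all panels but that one.

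*Alas2* catalyses the rate-setting step of heme synthesis in red-cell precursors. It lies on chromosome X from 150547375 to 150570638 of GRCm38, on the plus strand, with 11 exons in its main coding transcript. Its level was 60.0, 71.2, 71.4 and 56.4 CPM in WT replicates 1 to 4. In mutant replicates 1 to 4 it was 540.7, 168.7, 344.4 and 355.6 CPM. The lowest mutant library thus stood above the highest WT library by more than the whole range of the WT group, while the mutant libraries themselves differed widely (coefficient of variation 43.1%). The log2 fold change was 2.44 (SE 0.29, 95% interval 1.80 to 3.09, adjusted p = 0.00185 from edgeR), the 34th highest of the 14451 genes tested. Without mutant replicate 1 it was 2.16, and all 8 fits that left out 1 library kept the call. The table was counted with no stated use of strand, and 311 exon bases of *Alas2* overlap *Apex2* on the other strand, a gene at 17.7 CPM in WT and 20.3 in the mutant. Because *Alas2* is X-linked, the sex of the embryos was looked at too. Y-linked genes were detected in every library and their levels overlapped between genotypes, and with their level as a covariate the log2 fold change of *Alas2* was 2.17. *Xist*, an RNA of female cells, was also present in every library, at 236.2 to 464.2 CPM in WT and 161.6 to 480.1 in the mutant. No library could thus be assigned to a single sex.

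*Alas1* encodes the isozyme that supplies heme for cytochromes in most tissues, the myocardium included. It lies on chromosome 9 from 106233455 to 106248654, on the minus strand. Its level was 40.5, 42.0, 44.2 and 42.2 CPM in WT replicates 1 to 4 and 27.1, 31.1, 36.9 and 33.5 CPM in mutant replicates 1 to 4. The groups did not overlap, but the gap between the nearest libraries, 36.9 and 40.5 CPM, was narrow. The log2 fold change was -0.39 (SE 0.09, 95% interval -0.59 to -0.19, adjusted p = 0.0262 from edgeR). This call was the least firm among the 9. It was lost with a covariate of Y-linked genes (-0.40, adjusted p = 0.0664) and when any WT library, mutant replicate 2 or mutant replicate 4 was left out, with an adjusted p of up to 0.0842 and a log2 fold change from -0.46 to -0.32 over the 8 such fits.

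The 2 isozymes could be compared within each library, which needs no scaling for depth. For each count of *Alas1* there were 1.48, 1.70, 1.61 and 1.34 counts of *Alas2* in WT replicates 1 to 4. In mutant replicates 1 to 4 there were 19.9, 5.41, 9.33 and 10.6. The mean log2 ratio was 0.61 ± 0.15 (SD, n = 4) in WT and 3.35 ± 0.77 (SD, n = 4) in the mutant, a difference of 2.74 (95% interval from inverting the permutation test 1.68 to 3.90). A two-sided exact permutation test over the 70 relabellings gave p = 0.0286, the smallest that 4 against 4 samples allow, and 0.0571 after adjustment over the 2 ratios tested. Every mutant library was above WT for *Alas2* and below WT for *Alas1*, so the ratio had to separate the groups. The p-value thus adds nothing to those values.

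The other ratio set *Alas2* against the hemoglobin genes, whose protein takes up most of the heme of a red cell. For each count of *Alas2*, the hemoglobin genes together had 109.7, 110.5, 101.0 and 115.5 counts in WT replicates 1 to 4 and 124.1, 114.0, 112.9 and 112.2 in mutant replicates 1 to 4. The groups overlapped. The mean log2 ratio of *Alas2* to hemoglobin was -6.77 ± 0.08 (SD, n = 4) in WT and -6.85 ± 0.07 (SD, n = 4) in the mutant, a difference of -0.09 (exact permutation p = 0.143, adjusted p = 0.143), and its 95% interval ran from -0.30 to 0.04. In linear terms the mutant ratio was 0.942 of that in WT, in libraries whose hemoglobin share ran from 0.671% to 6.26%. Without WT replicate 4 the difference was -0.11 and the exact permutation p was 0.0286.

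**Figure D2:**
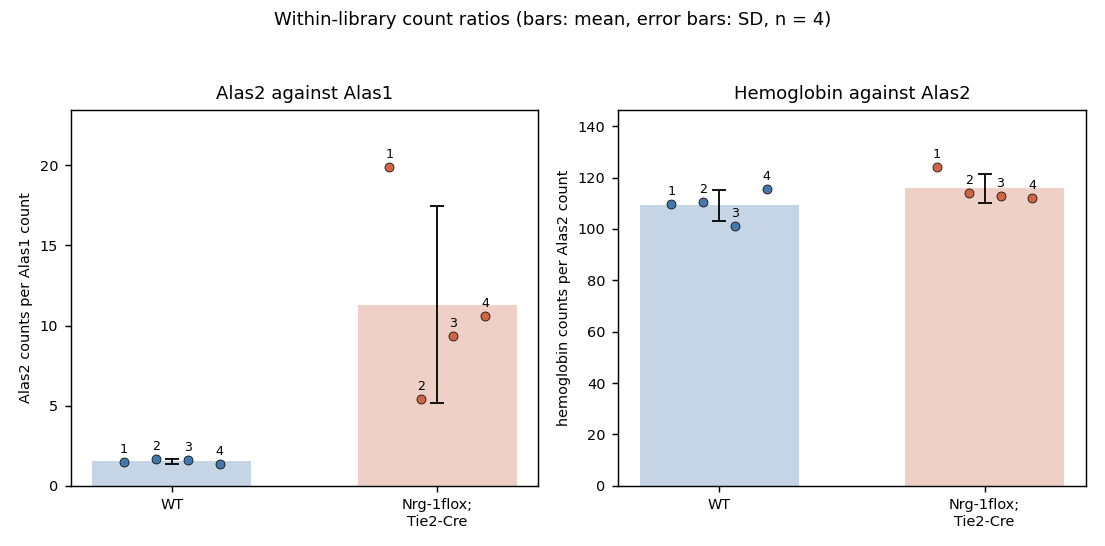
Counts of *Alas2* per count of *Alas1* (left axis) and counts of all hemoglobin genes per count of *Alas2* (right axis) in each WT (blue) and Nrg-1flox;Tie2-Cre (orange) library, with replicate numbers, means as bars and SD as error bars (n = 4). The left ratio is 1.34 to 1.70 in WT and 5.41 to 19.9 in the mutant, whereas the right one stays between 101.0 and 124.1 in all libraries.

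Along the middle of the chain the enzymes rose by similar factors. *Alad*, on chromosome 4, joins 2 molecules of the first product into porphobilinogen, and it ranged from 43.7 to 49.5 CPM in WT and from 79.6 to 142.4 in the mutant. Its log2 fold change was 1.31 (SE 0.15, adjusted p = 0.00185 from edgeR). *Uros* makes the ring, uroporphyrinogen III. Its level was 19.7, 23.4, 21.4 and 21.5 CPM in WT and 74.9, 42.9, 58.0 and 61.0 CPM in the mutant, and its log2 fold change was 1.46 (SE 0.15, adjusted p = 0.00152). *Urod*, which trims the side chains of the ring in the cytosol, ranged from 55.0 to 60.5 CPM in WT and from 89.4 to 200.6 in the mutant, with a log2 fold change of 1.34 (SE 0.20, adjusted p = 0.00369). The 95% intervals of these genes overlapped one another, so no order among them can be read from the fold changes.

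The last 3 enzymes work in or at the mitochondrion. *Cpox*, on chromosome 16, had the largest fold change after *Alas2*. Its level was 123.3, 130.5, 139.2 and 123.4 CPM in WT replicates 1 to 4, and 718.8, 220.1, 370.9 and 421.4 CPM in mutant replicates 1 to 4. Replicate 1 of the mutant stood far above the other libraries, and the coefficient of variation in the mutant was 48.3% against 5.84% in WT. The log2 fold change was 1.74 (SE 0.29, 95% interval 1.11 to 2.38, adjusted p = 0.00603 from edgeR), and 1.39 without mutant replicate 1. *Ppox*, on chromosome 1, which oxidises the ring to protoporphyrin, ranged from 31.3 to 40.2 CPM in WT and from 58.7 to 117.0 in the mutant, a log2 fold change of 1.31 (SE 0.18, adjusted p = 0.00307). It shares 791 exon bases with *B4galt3* on the other strand, a gene at 30.5 CPM in WT and 39.7 in the mutant, so some reads of either could be counted for the other.

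*Fech* inserts iron into the finished ring. It was the steadiest member in WT, at 71.7, 71.5, 71.0 and 68.7 CPM, a coefficient of variation of 1.93%. In mutant replicates 1 to 4 it was 296.8, 123.8, 203.5 and 216.6 CPM. The log2 fold change was 1.57 (SE 0.21, adjusted p = 0.00279 from edgeR), and 1.36 without mutant replicate 1.

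*Tfrc*, the receptor that takes transferrin-bound iron into the cell, is used by dividing cells of every kind as well as by red-cell precursors. Its level was 307.1, 300.5, 356.3 and 294.3 CPM in WT replicates 1 to 4 and 631.6, 439.8, 518.9 and 529.0 CPM in mutant replicates 1 to 4. The rise was smaller than that of any of the enzymes that rose, and its mutant libraries differed less among themselves, with a coefficient of variation of 14.9%. The log2 fold change was 0.75 (SE 0.11, 95% interval 0.52 to 0.99, adjusted p = 0.00332 from edgeR). Its interval did not overlap that of *Alas2*, *Cpox*, *Fech* or *Uros*, but the differences between genes were not tested.

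**Figure D3:**
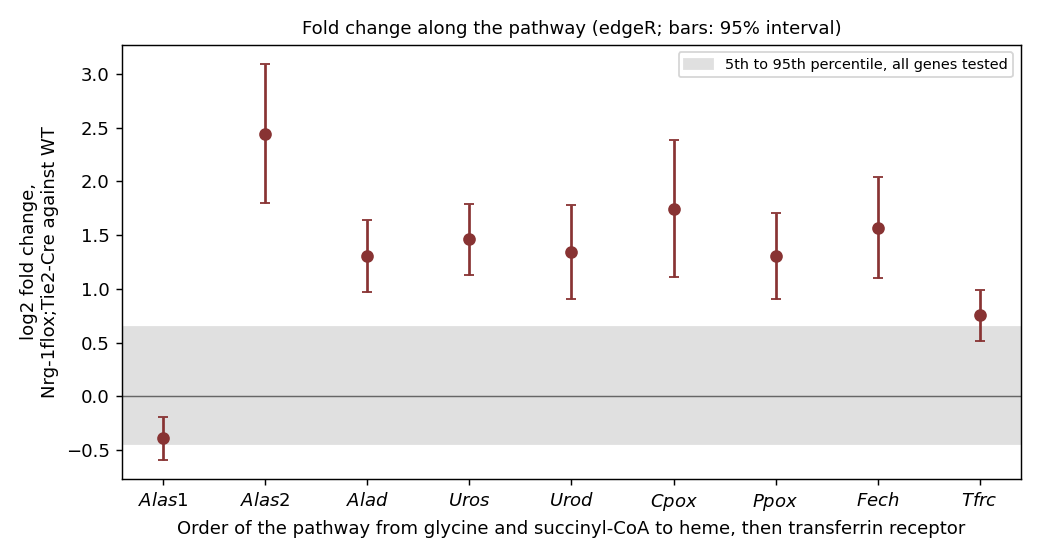
Log2 fold change of Nrg-1flox;Tie2-Cre against WT (vertical axis) for the enzymes in the order of the pathway and for *Tfrc* (horizontal axis), with 95% intervals from edgeR over 4 and 4 libraries. The shaded band runs from the 5th to the 95th percentile of all 14451 genes, -0.44 to 0.65. *Alas2* lies at 2.44, the enzymes after it between 1.31 and 1.74, and *Alas1* at -0.39.

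Counts of *Alas2* were also set against each other gene within a library, as a description. The lowest mutant ratio stood above the highest WT ratio for all of them. *Alas2* itself had the 34th highest log2 fold change of the 14451 genes tested. The share of all genes against which its ratio separates the groups was not taken, so this does not mark these genes out. Against *Cpox* the ratio was 0.457 to 0.546 in WT and 0.752 to 0.928 in the mutant, the tightest of the mutant ranges. Against *Fech* it was 0.820 to 1.01 in WT and 1.36 to 1.82 in the mutant, and against *Tfrc* 0.192 to 0.237 and 0.384 to 0.856.

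Per kilobase of the coding transcript with the longest coding sequence, *Tfrc* had the highest level of the 9 genes in WT, at 64.3 ± 5.79 CPM per kb (SD, n = 4). It was followed by *Cpox* at 41.7 ± 2.43, *Urod* at 38.8 ± 1.97, *Alad* at 37.8 ± 2.04 and *Alas2* at 31.8 ± 3.79, and neighbours in this run overlapped from *Cpox* on. *Ppox* lay at 19.5 ± 2.0, *Alas1* at 12.4 ± 0.451, *Uros* at 12.2 ± 0.846 and *Fech* at 10.8 ± 0.208 CPM per kb. In the mutant *Alas2* moved from the fifth place to the first, at 173 ± 74.6 CPM per kb, and *Alas1* from the seventh to the last, at 9.46 ± 1.21. The ranges of all neighbours overlapped in the mutant except those of *Fech* and *Alas1*. In WT, too, the red-cell isozyme was above *Alas1* on this scale. The lengths are those of 1 transcript a gene, so these levels depend on that choice.

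The mutant libraries differed among themselves in the same order for nearly the whole chain. The hemoglobin share was highest in mutant replicate 1 (6.26%), then replicate 4 (3.90%), replicate 3 (3.80%) and replicate 2 (1.94%). All 8 members that were higher in the mutant followed that order in CPM. Of all 14451 genes tested 7.09% did so, and 34% of the 739 genes called higher. *Alas1* ran otherwise, highest in replicate 3 and lowest in replicate 1. In WT, where the hemoglobin share ranged only from 0.671% to 0.800%, the members did not share 1 order.

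Markers of red cells moved with these genes. All 16 erythroid markers tested were called higher in the mutant, with log2 fold changes from 1.49 to 2.77 and a median of 2.36. The call of 1 of them, *Hbb-bt*, was lost with limma-voom, with the Y-linked covariate and in 5 fits that left out a library. The most abundant were the embryonic globin genes *Hbb-y* (2.45, SE 0.35), *Hbb-bh1* (2.50, SE 0.29) and *Hba-x* (2.69, SE 0.28). The summed level of the list was 6765 to 8201 CPM in WT and 20009 to 69173 CPM in the mutant, and no marker of the list was at 0 in all libraries. *Alas2*, at 2.44, lay within the range of the erythroid markers, and the shared enzymes lay below their median. The part of red cells in the results for the members was not tested, and in bulk RNA more cells of a type cannot be told apart from more RNA per cell.

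Markers of heart muscle and endothelium were read in the same fit. Of 12 cardiomyocyte markers none was called by edgeR, 1 had an unadjusted p under 0.05, and DESeq2 called 1 lower and limma-voom none. Their median log2 fold change was -0.07, with *Myh7* at 0.09, *Actc1* at 0.09 and *Myh6* at -0.25 (adjusted p = 0.0796 from edgeR). Without mutant replicate 1, 2 of the 12 were called higher. Of 8 endothelial markers 1 was called lower, *Tek* (-0.34, adjusted p = 0.031), and the 3 most abundant, *Cdh5* (-0.14), *Kdr* (-0.38) and *Npr3* (-0.31), did not pass the test. In edgeR 5 of the 8 had an unadjusted p under 0.05, and DESeq2 called 2 lower, *Kdr* among them (adjusted p = 0.0196). With the Y-linked covariate or the replicate block none of the 8 was called. Without mutant replicate 1, 2 were lower in edgeR, *Kdr* among them (-0.51, adjusted p = 0.00162). Their summed level was 816.5 to 898.2 CPM in WT and 702.8 to 773.9 in the mutant, without overlap.

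Of 7 megakaryocyte markers 2 were called higher, *Itga2b* (1.15, adjusted p = 0.0478) and *Gp9* (1.57, adjusted p = 0.0357), whereas the platelet chemokine genes *Pf4* (1.34, adjusted p = 0.137) and *Ppbp* (1.31, adjusted p = 0.307) did not pass. limma-voom, the Y-linked covariate and the replicate block called none of the 7, and without mutant replicate 1 the median log2 fold change of the list was 0.60 in place of 1.31. The list's summed level was 30.2 to 47.8 CPM in WT and 52.2 to 172.0 in the mutant. Of 8 macrophage markers 2 passed the filter, and *Csf1r* (1.08, adjusted p = 0.00657) was called higher. *Mrc1* (0.11, adjusted p = 0.795) did not pass the test, *C1qb*, at 0.473 CPM in WT and 0.805 in the mutant, was below the filter, and the defining marker *Adgre1* was at 0 in all WT libraries. The list's summed level stayed low, at 5.61 to 6.90 CPM in WT and 9.42 to 15.7 in the mutant. The part of these cells in the results was not tested.

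Around the enzymes, genes that carry substrates into and out of mitochondria or otherwise aid heme synthesis were read next. Of 10 such genes tested, 7 were called higher and 3 were not called, with a median log2 fold change of 0.69. *Abcb6*, a porphyrin transporter, lost its call with the replicate block, with the Y-linked covariate and without mutant replicate 4 or WT replicate 1, 2 or 4, which left 6 called higher. *Slc25a37* (mitoferrin 1), the carrier that brings iron to ferrochelatase in red-cell precursors, rose from 179.3 to 748.9 CPM, a log2 fold change of 2.06 (SE 0.25, adjusted p = 0.0019). *Fam210b*, which encodes a mitochondrial protein that aids heme synthesis in red-cell precursors, rose from 20.7 to 58.6 CPM (adjusted p = 0.0131). *Abcb10*, which binds mitoferrin 1, rose by 1.21 (SE 0.18, adjusted p = 0.00369), *Tmem14c*, which moves a heme precursor across the inner membrane, by 0.80 (SE 0.15, adjusted p = 0.0109), and *Slc25a38*, the glycine carrier that feeds the first step, by 0.73 (SE 0.11, adjusted p = 0.00457). *Slc25a28* (mitoferrin 2), the iron carrier of other tissues, had a log2 fold change of 0.20 (SE 0.10, adjusted p = 0.264) and did not pass. The difference between the mitoferrin genes was not tested.

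**Figure D4:**
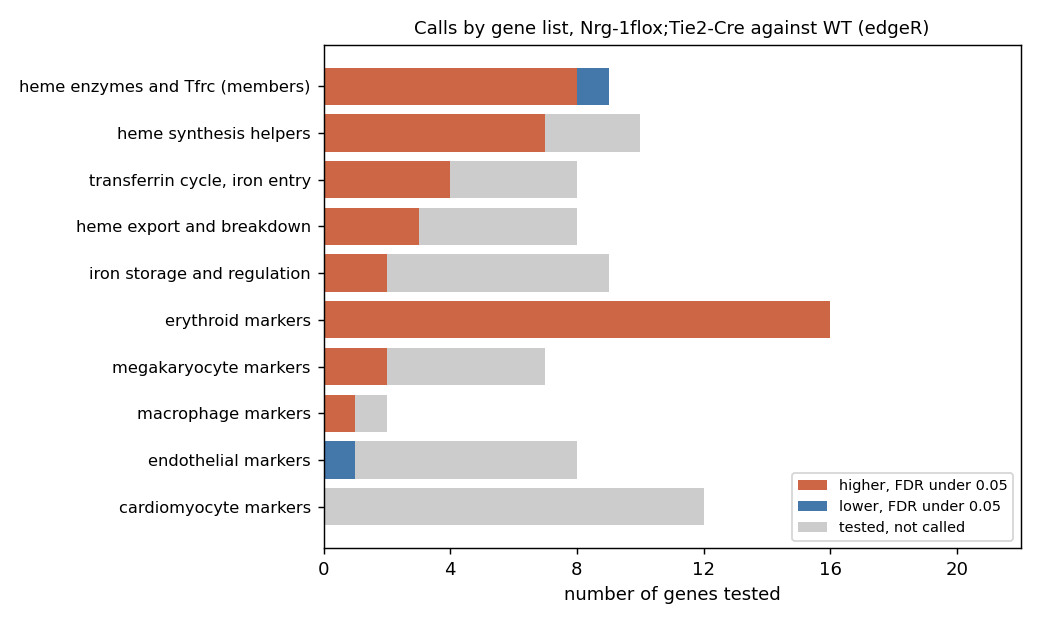
Number of genes tested in each list (horizontal axis) that were called higher (orange), lower (blue) or not called (grey) in Nrg-1flox;Tie2-Cre against WT by edgeR. Higher calls were made for 8 of the 9 heme enzymes and *Tfrc*, 7 of 10 helper genes and 16 of 16 erythroid markers, whereas no cardiomyocyte marker was called.

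Among 8 genes of the transferrin cycle and iron entry, 4 were called higher, with a median log2 fold change of 0.46. *Tfr2*, a second transferrin receptor of liver and red-cell precursors, had the largest change, 2.40 (SE 0.26, adjusted p = 0.00161), from 2.23 to 11.8 CPM. *Steap3*, the reductase that frees iron from transferrin inside the endosome, rose by 1.48 (SE 0.21, adjusted p = 0.0036), *Exoc6*, needed for recycling of the receptor in red-cell precursors, by 0.58 (SE 0.14, adjusted p = 0.0356) and *Slc11a2*, which exports that iron to the cytosol, by 0.33 (SE 0.09, adjusted p = 0.0438). *Trf*, which encodes transferrin itself, was at 1.81 CPM in WT and 3.83 in the mutant and did not pass (adjusted p = 0.148). With the Y-linked covariate or the replicate block 2 of the 4 calls were kept, those of *Tfr2* and *Steap3*. *Exoc6* and *Slc11a2* also lost theirs when any WT library, mutant replicate 3 or mutant replicate 4 was left out. *Slc11a2* lost it in limma-voom (adjusted p = 0.0555) and with upper-quartile size factors in edgeR (adjusted p = 0.0522) as well.

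Of 9 genes of iron storage, export and regulation tested, 2 were called higher, *Fth1* (1.22, SE 0.22, adjusted p = 0.0101), from 377.8 to 879.2 CPM, and *Ftl1* (0.60, SE 0.12, adjusted p = 0.0157), from 842.2 to 1281 CPM. Of the genes whose hairpins are printed, *Alas2*, *Fth1* and *Ftl1*, with the hairpin before the coding sequence, and *Tfrc*, with hairpins after it, were called higher. *Slc40a1* had a log2 fold change of 1.46 and did not pass (adjusted p = 0.0679), though it was called higher by DESeq2 (1.47, adjusted p = 0.00652) and without mutant replicate 1 (0.82, adjusted p = 0.0346). The call of *Ftl1* was lost with the Y-linked covariate (0.53, adjusted p = 0.0569). *Aco1* (-0.09, adjusted p = 0.52) and *Ireb2* (-0.15, adjusted p = 0.385), which encode the iron regulatory proteins, were not called. Without mutant replicate 1, *Ireb2* was called lower (-0.27, adjusted p = 0.00527), and the list had 4 called higher and 2 lower, and DESeq2 called 3 higher and 1 lower.

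Heme breakdown and export gave 3 called higher of 8 tested, 2 with limma-voom and 1 with the Y-linked covariate or the replicate block. *Blvrb*, a flavin and biliverdin reductase of red cells, rose by 2.05 (SE 0.23, adjusted p = 0.00178), *Abcg2*, an exporter of porphyrins, by 0.53 (SE 0.14, adjusted p = 0.0468) and *Slc48a1*, a heme transporter of lysosomes, by 0.47 (SE 0.10, adjusted p = 0.0159). Of these, *Abcg2* and *Slc48a1* lost the call with the block and with the covariate, and *Abcg2* also in limma-voom (adjusted p = 0.0575) and in 6 of 8 fits that left out a library. *Hmox1*, the inducible enzyme of heme breakdown, was at 20.2 CPM in WT and 29.9 in the mutant without passing (adjusted p = 0.174), and its log2 fold change of 0.56 was 0.23 without mutant replicate 1, the library at 48.7 CPM. Of 11 genes of iron-sulfur cluster assembly, which depends on the same mitochondrial iron, 1 was called higher, *Glrx5* (0.79, SE 0.13, adjusted p = 0.00589), and 3 were called higher without mutant replicate 1.

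The genes whose pattern over the 8 libraries was most like that of *Alas2*, by Pearson's r of log2 CPM, were *Sptb*, which encodes beta-spectrin of the red-cell skeleton (r = 0.9996), *Hbb-bh1* (0.999), the blood transcription factor gene *Tal1* (0.998), *Mfsd2b* (0.998), a lipid exporter of red cells, and *Uba7* (0.998). For *Alas1* they were *Prmt8* (0.992), *Mtap* (0.990), *Ckb* (0.990), *Kcng1* (0.987) and *Sumo3* (0.985), all with negative log2 fold changes, from -1.15 to -0.26. These correlations run over 2 genotypes that share libraries and separate for both genes, so they describe likeness and carry no test.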

How the data were processed

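The deposited table holds expected counts per gene, which the authors made with cutadapt and RSEM 1.3.1 on GRCm38, per the submitters' processing notes, without scaling for depth or gene length. The aligner, read trimming settings and use of strand are not given in the sources used here. RSEM shares reads that fit several genes among them. Symbols came from a table of gene names (53274 of 53465 genes). Expected counts were rounded to whole numbers and tested with edgeR 4.0.16 in R 4.3.3 (TMM, filterByExpr, quasi-likelihood test, Benjamini-Hochberg adjustment over 14451 genes, FDR 0.05). CPM are TMM-normalized. The SE was obtained as the size of the log2 fold change over sqrt(F), and intervals use the fitted degrees of freedom. Ratios within a library were taken on counts plus 0.5 and compared by exact permutation over samples. On simulated counts, the test recovered 89.7% of genes changed 2-fold (1 on the log2 scale), with 7 false calls among 14292 genes. The simulation gave both groups and all genes the same dispersion. The real mutant libraries differed more among themselves (chi-square per degree of freedom up to 53.5, against up to 6.18 in WT). The rate therefore does not give the power of this comparison. No replicates looked like copies of 1 library (lowest chi-square per degree of freedom 3.77).

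The members and gene lists were chosen with earlier results of these data known. Besides the members, the text names up to 5 called genes a list by size of change, the 3 most abundant markers of each cell type and the 5 genes most like *Alas2* and *Alas1*, while *Slc25a28*, *Trf*, *Slc40a1*, *Aco1*, *Ireb2*, *Hmox1*, *Tek* and *Gp9* were added after their values were seen. *Abcb6*, *Hbb-bt* and *Adgre1* are also named outside that rule. The fit was repeated with each library left out, with Y-linked expression as a covariate, with a replicate block, without hemoglobin genes, with other size factors and filters, and in limma 3.58.1 (voom) and DESeq2 1.42.0. The ratios were also taken with 2 added counts, and that to hemoglobin with embryonic genes alone. Lengths and positions came from GENCODE M21. *Ahsp*, *Sec15l1*, *Fdx2* and *Hrg1* matched no symbol in the table. Some items are not reported here.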

Additional observations from a re-analysis of the deposited data

Results flagged for a closer look

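Of 24 groups of 4 libraries examined for a library far from the rest, 1 stood out, where chance gives about 1 in 20. It was the log2 ratio of *Alas2* to summed hemoglobin in the mutant. Replicate 1 had the lowest ratio, with 124.1 hemoglobin counts per *Alas2* count against 112.2 to 114.0 in the other mutant libraries, and its gap to the nearest of them was 0.842 of the group's range, past Dixon's 95% critical value. It is also the library with the largest hemoglobin share, 6.26%.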

How the results depend on the processing

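The 8 members that rose were called in all alternatives. *Alas1* kept its sign throughout but lost the call with the Y-linked covariate, which left 0 members called lower, and in 6 of 8 fits that left out a library (0 to 1 called lower). The same-numbered samples of the 2 genotypes correlated from -0.0911 to 0.0187 in their deviations, so they share only a number. With the replicate block 616 genes passed, 398 higher and 218 lower, and with the Y-linked covariate 604, 391 higher and 213 lower, against 1245, 739 and 506. Leaving out 1 library gave 509 to 2523 genes, 335 to 1368 higher and 174 to 1155 lower. The highest number came without mutant replicate 1 (2523), and the lowest without WT replicate 1 (509). The cause was not tested. An exact sign-flip test over the replicate numbers left the *Alas2* to *Alas1* ratio at 2.74 with p = 0.125, which is as low as 4 pairs can reach. Without 1 library that ratio's difference stayed between 2.41 and 3.04 and that of *Alas2* to hemoglobin between -0.11 and -0.049, past the threshold only without WT replicate 4. Of 46 other genes followed through all fits, 31 were called and 20 of these in every fit that held them, while 9 lost the call both with the block and with the Y-linked covariate (*Exoc6*, *Slc11a2*, *Ftl1*, *Abcg2*, *Slc48a1*, *Tek*, *Itga2b*, *Gp9* and *Sumo3*). *Abcb6*, which lost its call with both, and *Hbb-bt*, which lost it with the covariate, are not among the 46. None of the 31 turned sign, but without mutant replicate 1 the uncalled *Ppbp* (-0.12) and *Myh7* (-0.02) did. Members had at least 258 counts in each library, so counting error was small beside the spread of the mutant libraries.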
